A study of Homo sapiens with 8 samples.

Results

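Nuclear genes for the respiratory chain were examined in HEK293T cells, an established human embryonic kidney line, after 30 min with 40 µM sodium arsenite or vehicle. Sodium arsenite is an oxidative stressor that leads to phosphorylation of the initiation factor eIF2, and the treatment addressed the translational response to it. Ribosome-protected fragments (ribo-seq) and randomly fragmented polyA-selected mRNA (mRNA-seq) were sequenced from each lysate. There were 2 replicates each of control ribo-seq, control mRNA-seq, arsenite ribo-seq and arsenite mRNA-seq, which gave 8 libraries. Members were chosen by symbol alone: coding genes named NDUFA, NDUFB, NDUFC, NDUFS or NDUFV with a number, NDUFAB1, SDHA to SDHD, the UQCR genes, the COX4 to COX8 genes, CYC1, CYCS and the ATP5 genes. This matched 89 of 19964 genes, each represented by the transcript with the most coding-region (CDS) reads in control ribo-seq. Of these, 79 had a mean of at least 10 reads in both assays, as did 10273 genes in all.

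The respiratory chain sits in the inner mitochondrial membrane. Complex I (NADH dehydrogenase) and complex II (succinate dehydrogenase) pass electrons to ubiquinone, complex III (the cytochrome bc1 complex) hands them to cytochrome c, and complex IV (cytochrome c oxidase) to oxygen. Complexes I, III and IV pump protons, and complex V (ATP synthase) uses the gradient to make ATP. Mitochondrial DNA encodes part of every complex except complex II. All members described here are transcribed in the nucleus, translated mainly on cytosolic ribosomes and imported. Kidney-derived cell lines use the ubiquitous isoforms of complex IV subunits, while muscle, lung and testis have isoforms of their own.

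The 79 members with enough reads were 37 genes of complex I, 4 of complex II, 9 of complex III, 11 of complex IV, 14 of complex V, CYCS (cytochrome c, the mobile carrier) and 3 genes that share a symbol stem but encode no subunit of the named complex. NDUFA4 was counted with complex IV, where its product is now placed. The 3 others were COX7A2L, a supercomplex assembly factor, and ATP5S and ATP5SL, which are not core ATP synthase subunits. The other 10 matched genes did not reach the minimum, and all had 0 CDS ribo-seq reads in every library. Among them were the tissue isoforms COX4I2, COX6A2, COX6B2, COX7A1, COX7B2 and COX8C, with at most 21 mRNA-seq reads in any library. UQCRHL, ATP5L2 and the readthrough gene ATP5J2-PTCD1 had at most 13. ATP5E, which encodes the epsilon subunit of ATP synthase, had 61 and 628 mRNA-seq reads in control and 32 and 552 after arsenite, none of them in the CDS. Reads that fit more than 1 gene had been discarded before deposit, so a gene with a near-identical copy can lose its coding reads, and whether this holds for ATP5E was not tested.

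On the transcripts used, ribo-seq held 1900743 and 7270196 reads in control (replicates 1 and 2) and 1023935 and 3043812 after arsenite, and mRNA-seq held between 3993293 and 21724945. Replicate 1 was the shallower one in every group. Members took 1.95% and 2.08% of ribo-seq reads in control and 1.60% and 2.12% after arsenite, against 1.50% and 1.61%, then 1.38% and 1.49%, of mRNA-seq reads. The epithelial keratins KRT8 and KRT18, vimentin and the neurofilament genes NEFL, NEFM and INA, which HEK293 derivatives express, were detected in all 8 libraries. Markers of blood, liver and astrocytes (PTPRC, ALB and GFAP) had at most 15 mRNA-seq reads and 0 ribo-seq reads, and HBB and MYH7 had none. Log2 values below are on the scale of edgeR's TMM normalization, which sets the bulk of mRNAs to about 0. A fall in translation shared by all mRNAs is therefore not visible in them. A call means that edgeR's quasi-likelihood test gave a p below 0.05 once adjusted over all genes tested by Benjamini-Hochberg. With 2 libraries against 2, an exact two-sided permutation test of any single gene cannot go below p = 0.333, so the calls rest on the spread shared across genes.

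The first question was how efficiently these mRNAs were translated in control cells. Translation efficiency (TE) is ribo-seq over mRNA-seq, here with CDS reads in both assays so that the length of the CDS enters both sides. The member median was 0.31 on the log2 scale, a TE 1.24-fold that of the bulk, with 0.38 in replicate 1 and 0.33 in replicate 2. Of the 79 members, 62 lay above 0 (78.5%, against 50.3% of all genes tested), and 51 did so in both replicates. By complex the median was 0.27 in complex I, 0.83 in complex II, 0.74 in complex III, 0.40 in complex IV and 0.30 in complex V. Complex II was 0.50 and 1.13 in the replicates and complex I was 0.41 and 0.26. Complex III was 0.53 and 0.49, complex IV 0.33 and 0.30, and complex V 0.24 and 0.36. The fitted medians of complexes III and IV thus lay above both of their replicate medians. In replicate 1 the complex medians lay within 0.24 to 0.53, and only in replicate 2 did complex II stand clear of the others. With mRNA-seq reads over the whole transcript in place of CDS reads, complex II had the lowest median (0.44) and complex III the highest (1.22), with complex I at 0.74, complex IV at 0.58 and complex V at 0.91, and 34 of 79 members were called, where 34.1% of genes were. UTR length then enters the ratio. All medians lay above 0 either way, but the order of the complexes changed with the reads counted.

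**Figure D1:**
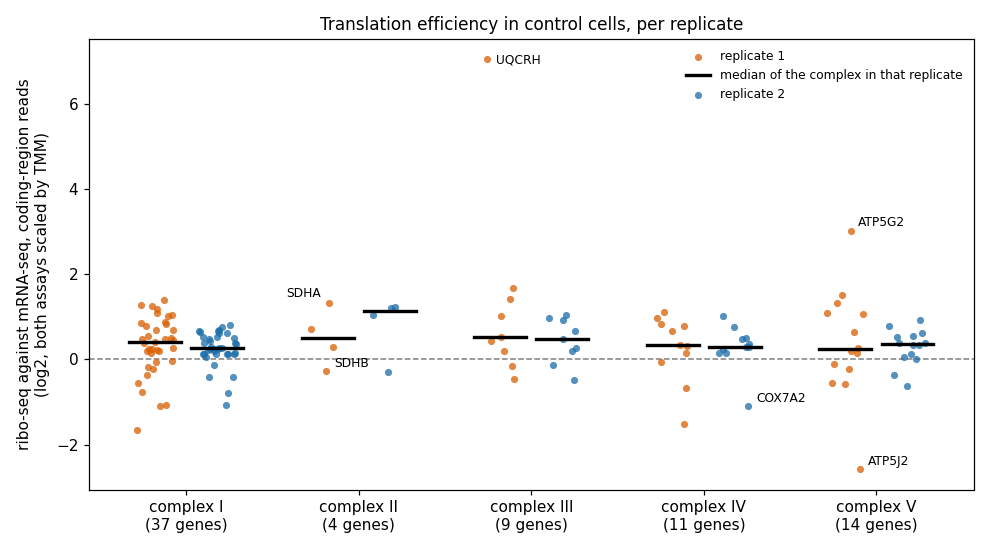
Log2 TE of 75 members in control cells (vertical axis) by complex (horizontal axis), with 1 point per gene and replicate and a bar at each median. All complex medians lie above 0, and the genes spread far more in replicate 1 than in replicate 2, with UQCRH at 7.04 and ATP5J2 at -2.57 in replicate 1.

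TE was called higher than the bulk in 9 members, where 8.39% of all genes tested were called higher, and lower in 1 member, where 13.6% were called lower. The 79 members thus had 11.4% called higher and 1.27% called lower. Single values varied widely between replicates. The SD over members was 1.11 in replicate 1 and 0.46 in replicate 2, and the correlation of the replicates over the 79 genes, as a description, was 0.20 (0.67 over all genes tested; genes share their libraries and are not independent).

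In complex II, SDHA, the flavoprotein that oxidizes succinate, had 191 and 642 CDS ribo-seq reads against 144 and 498 CDS mRNA-seq reads in control. Scaled to library size, ribo-seq exceeded mRNA-seq in both replicates, with log2 TE of 1.32 and 1.21. The fitted value was 1.26 ± 0.30 (n = 2, adjusted p = 0.0108, edgeR). Values after ± are standard errors (SE) derived from edgeR's test statistic, which uses spread shared across genes. They do not measure how closely the 2 replicates agree. SDHC, one of the membrane anchors, was at 0.89 ± 0.29 (adjusted p = 0.0453, edgeR). The other anchor, SDHD, was at 0.77 ± 0.32 and missed the threshold (adjusted p = 0.102, edgeR). SDHB, the iron-sulfur subunit, went the other way with -0.28 in replicate 1 and -0.29 in replicate 2, and was not called. Its 239 and 1272 ribo-seq reads compared with 547 and 2788 mRNA-seq reads on the CDS. From SDHB to SDHA the fitted log2 values of the 4 subunits covered 1.55.

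In complex III, UQCRB, a small subunit near the ubiquinone site, was called higher at 1.17 ± 0.33 (adjusted p = 0.0228, edgeR), with 1.69 and 0.66 in the replicates. UQCRH, the hinge protein that contacts cytochrome c1, had the highest fitted value of any member, 2.45 ± 0.73 (adjusted p = 0.0293, edgeR). It rests on 1 CDS mRNA-seq read in replicate 1 of the control, beside 87 ribo-seq reads. In replicate 2, with 258 mRNA-seq and 281 ribo-seq reads, log2 TE was 0.96. UQCRH has the near-copy UQCRHL, so its counts are uncertain. The catalytic CYC1 (cytochrome c1) was at -0.08 ± 0.31, and UQCRQ had the lowest value of the complex, -0.32 ± 0.29. The core proteins UQCRC1 and UQCRC2 were close to each other at 0.74 and 0.75, and neither was called.

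In complex IV, COX6B1 was called higher at 0.93 ± 0.29 (adjusted p = 0.0366, edgeR), with 0.84 and 1.03 in the replicates. COX7A2, the ubiquitous isoform of subunit VIIa, was the only member called lower, at -0.90 ± 0.30 (adjusted p = 0.0480, edgeR). It had 108 and 846 CDS ribo-seq reads in control against 324 and 3261 CDS mRNA-seq reads, and lay at -0.67 and -1.10 in the replicates. Of the remaining ubiquitous isoforms, COX4I1 was at 0.40 ± 0.29, COX8A at 0.72 ± 0.29 and COX6A1 at -0.48 ± 0.42, none of them called. COX6A1 changed side between replicates, with -1.50 and 0.51.

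In complex I, the accessory subunits NDUFA9 (0.95 ± 0.30, adjusted p = 0.0375, edgeR) and NDUFA3 (0.92 ± 0.30, adjusted p = 0.0408, edgeR) were called higher, and no gene was called lower. NDUFA9 had 542 and 1709 ribo-seq reads on the CDS beside 446 and 1886 mRNA-seq reads. The lowest value was that of NDUFC2, at -0.47 ± 0.49. It changed side between replicates, with 1.40 in replicate 1 (10 ribo-seq and 7 mRNA-seq reads on the CDS) and -1.08 in replicate 2 (145 and 551). The catalytic core subunits NDUFS1, NDUFS3, NDUFS7, NDUFS8, NDUFV1 and NDUFV2 ran from -0.45 for NDUFS8 to 0.85 for NDUFS1, with no call.

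In complex V, the catalytic alpha subunit ATP5A1 was called higher at 0.94 ± 0.31 (adjusted p = 0.0470, edgeR), with 1.09 and 0.80 in the replicates, while the beta subunit ATP5B was at 0.27 ± 0.31. ATP5G1, ATP5G2 and ATP5G3 encode the same mature subunit c, which forms the rotor ring, and differ in their import sequences. ATP5G2 was called higher at 1.77 ± 0.49 (adjusted p = 0.0219, edgeR), and ATP5G1 and ATP5G3 were at 0.23 ± 0.30 and 0.25 ± 0.30. Replicate 2 shows no such gap, with 0.54 for ATP5G1, 0.55 for ATP5G2 and 0.33 for ATP5G3. In replicate 1, ATP5G2 had 1893 ribo-seq reads over 441 mRNA-seq reads and a log2 TE of 3.02. The lowest value was ATP5J2 at -0.82 ± 0.57, with -2.57 and 0.62 in the replicates. CYCS, outside the complexes, was at 0.60 ± 0.29 (adjusted p = 0.148, edgeR), with 0.63 and 0.58. Both complex V genes at the extremes of replicate 1 were thus near the rest in the deeper replicate.

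The second comparison was arsenite against control in mRNA level. It gave the most uniform shift: 72 of 79 members lay below 0 (91.1%, against 52.2% of all genes tested), and 48 did so in both replicates (60.8%, against 30.5%). The shift was small. The member median was -0.10, with -0.08 and -0.12 in the replicates, against -0.01 for all genes. Of the members, 20 were called lower and none higher, a share of 25.3%, beside 2.00% of the 12600 genes tested that were called lower. All 20 were below 0 in both replicates, and the fitted falls over both replicates lay between 10.5% and 16.5%. Abundant mRNAs pass the test more easily. Among the 3305 genes with a mean of at least 1000 mRNA-seq reads, a limit chosen after the values were seen, 4.24% were called lower, and so were 19 of the 69 members in that range (27.5%).

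**Figure D2:**
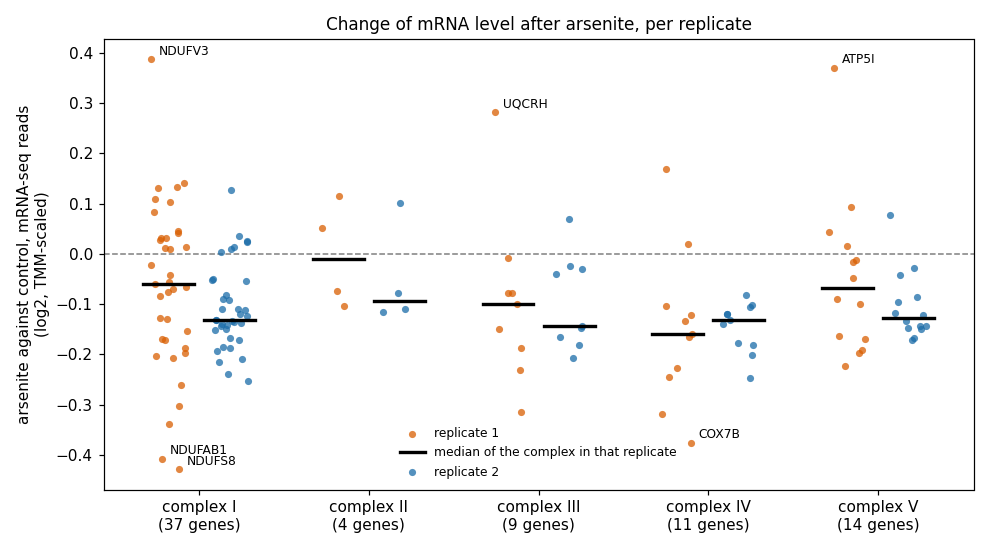
Log2 change in mRNA level, arsenite against control (vertical axis), by complex (horizontal axis), with 1 point per gene and replicate and a bar at each median. All 10 medians lie below 0, between -0.01 (complex II, replicate 1) and -0.16 (complex IV, replicate 1), and the genes spread less in replicate 2.

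These calls depend on how reads are counted and tested. With CDS mRNA-seq reads in place of reads over the whole transcript, 2 members (COX6A1 and COX7B) were called lower, where the background was 0.332% of genes. DESeq2 called 0 of 79 (11 at an unadjusted p below 0.05), and edgeR without the replicate block called 0 (0 at an unadjusted p below 0.05). The member median kept its sign in each of these.

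Complex IV had the lowest median of the fitted values, -0.17, with all 11 genes below 0 and 6 called: COX6A1, COX6C, COX7B, COX7C, COX8A and NDUFA4. It was lowest in replicate 1 only, at -0.16. In replicate 2 complex III was lowest at -0.14, and complexes I, IV and V all lay at -0.13. Counting NDUFA4 with complex I also put complex IV above complex III. COX7B, a small subunit of the oxidase, had 241 and 251 CPM (mRNA-seq reads scaled by library size and TMM) in control and 185 and 219 after arsenite. The 4 values did not overlap, and the fitted change was -0.26 ± 0.05 (test-based SE, n = 2, adjusted p = 6.59e-05, edgeR), the largest among the 20 called. COX6A1 changed by -0.21 ± 0.05 (adjusted p = 0.00160, edgeR), with 355 and 253 CPM in control and 315 and 213 after arsenite. Here the groups overlapped and only the comparison within replicates separated them. COX7A2 was at -0.11 and was not called.

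Complex III followed in the fitted values with a median of -0.16. The 4 called genes were the small subunits UQCRB, UQCRQ, UQCR10 and UQCR11, between -0.16 and -0.19, while the core proteins UQCRC1 and UQCRC2 and CYC1 were not called. The hinge protein UQCRH, at -0.01, was not called either. UQCRFS1 lay close to the called genes at -0.155 ± 0.05 and missed the threshold (adjusted p = 0.056, edgeR). Complex I had a median of -0.10 and 9 of 37 called: NDUFA1, NDUFA3, NDUFA13, NDUFB1, NDUFB9, NDUFB11, NDUFAB1, NDUFS3 and NDUFS8. NDUFAB1, which is also the mitochondrial acyl carrier protein, was at -0.21 ± 0.05 (adjusted p = 0.00347, edgeR), with -0.41 and -0.09 in the replicates. NDUFS3 and NDUFS8 were the 2 catalytic core subunits among the 9. Complex V had a median of -0.10 but 1 call of 14, ATP5G3 at -0.17 ± 0.05 (adjusted p = 0.0247, edgeR). Complex II had no call and no unadjusted p below 0.05, with a median of -0.07 and SDHA at 0.11 ± 0.09. CYCS was at -0.08 ± 0.05.

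Other gene groups shared this pattern in whole or in part. Of 82 cytosolic ribosomal protein genes, 80 lay below 0 (97.6%), 54 of them in both replicates (65.9%). In this list 23 were called lower, and the median was -0.11, so the shift was not particular to the members. Among 76 mitochondrial ribosomal protein genes, 66 lay below 0 (86.8%), 2 were called lower and 1 higher, with a median of -0.06. A list of 54 assembly factors, which help to build the complexes but are not part of them, had a median of -0.07, 1 called lower (NDUFAF3, at -0.27 ± 0.06, adjusted p = 0.000496, edgeR) and none higher. Of the assembly factors, 38 lay below 0 (70.4%). The shares called lower in the 3 lists, in the order given, were 28.05%, 2.63% and 1.85%, beside 2.00% of all genes tested. Differences between these lists and the subunit genes were not tested.

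Promoters of these genes are known for binding sites of nuclear respiratory factor 1 (NRF1), which coordinates respiratory genes. RefSeq promoters (GRCh38.p14, 250 bases before to 50 after the start) were matched for 65 of the 79 members. The palindromic NRF1 core CGCATGCG occurred in 10 of the 65 (15.4%), compared with 2.19% of 27305 promoters and 4.27% of the 8523 promoters of genes with enough reads in both assays. The sites below, with 10 bases on either side, were chosen to show this core once or more in complexes I, II, IV and V. Capitals mark the core, and letters are read along the strand of the gene.
NDUFS6: agaagccgtgCGCATGCGttagcgctaa
NDUFS7: ttccggtttcCGCATGCGctccgagccg
SDHD: gctgtgtttgCGCATGCGcgacgggtgt
COX6A1: ggagggcacaCGCATGCGcacgaaggaa
ATP5C1: ggagcttcggCGCATGCGcgctgaggcc
ATP5G2: gcccgggtcaCGCATGCGctgagccttc
ATP5J: actcaaagagCGCATGCGtacagagcaa

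They lie at chr5:1801352-1801379 (+) for NDUFS6, chr19:1383823-1383850 (+) for NDUFS7, chr11:112086754-112086781 (+) for SDHD and chr12:120437884-120437911 (+) for COX6A1. Those of complex V are at chr10:7788146-7788173 (+) for ATP5C1, chr12:53676107-53676134 (-) for ATP5G2 and chr21:25735156-25735183 (-) for ATP5J. The core starts between 219 and 21 bases upstream of the annotated start in these 7. The ETS core CCGGAAG, searched on both strands like the next 2, occurred in 29.2% of member promoters (21.1% of those of genes with enough reads). The YY1 core AAGATGGC was in 16.9% (6.21%) and CAAGGTCA, bound by ERR-alpha, in 6.15% (0.598%). The YY1 matches began 10 to 38 bases after the annotated start, except in ATP5F1 and ATP5J, where they began upstream of it. Of the 16 members called lower in mRNA with a matched promoter, 1 held the NRF1 core, COX6A1, and 7 held the ETS core. A match is a string of letters, and no binding was measured here.

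The third comparison was ribosome occupancy, CDS ribo-seq reads in arsenite against control. The members centred close to the bulk of mRNAs. Their median was -0.07, with -0.14 in replicate 1 and 0.03 in replicate 2. Only COX7A2 was called (1.27% of 79, where 2.81% of genes were called in either direction). Relative to the bulk of mRNAs, its occupancy rose by a log2 value of 1.20 ± 0.25 (test-based SE, n = 2, adjusted p = 0.0122, edgeR), which is 2.29-fold. The paper reports a general fall in ribosome occupancy, which this scale leaves out, so no absolute rise can be read from the value. Scaled CPM were 72.1 and 127 in control and 288 and 186 after arsenite, so the groups did not overlap. The change was 2.00 in replicate 1 and 0.55 in replicate 2. Its CDS reads numbered 108 and 846 in control and 235 and 527 after arsenite. NDUFC2, a membrane-arm subunit of complex I, was at 1.18 ± 0.35 and missed the threshold (adjusted p = 0.0697, edgeR), with 10 and 145 CDS reads in control and 36 and 90 after arsenite. NDUFS8, which carries iron-sulfur clusters of complex I, was at 0.60 ± 0.19 (adjusted p = 0.0885, edgeR).

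By complex, the median occupancy change was -0.01 in complex I, -0.07 in complex II, -0.30 in complex III, -0.03 in complex IV and -0.20 in complex V. Complex V had 9 of 14 genes below 0 in both replicates (64.3%, against 31.8% of all genes tested) and none above 0 in both. Cytosolic ribosomal protein genes were similar, with a median of -0.28, 47 of 79 below 0 in both replicates (59.5%) and 6 above. Mitochondrial ribosomal protein genes had a median of 0.05, with 25 of 75 below 0 in both (33.3%) and 22 above. The replicates disagreed for complex III, whose median was -0.57 in replicate 1 and at 0 to 2 decimals in replicate 2, so the value lies within the spread of the replicates.

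**Figure D3:**
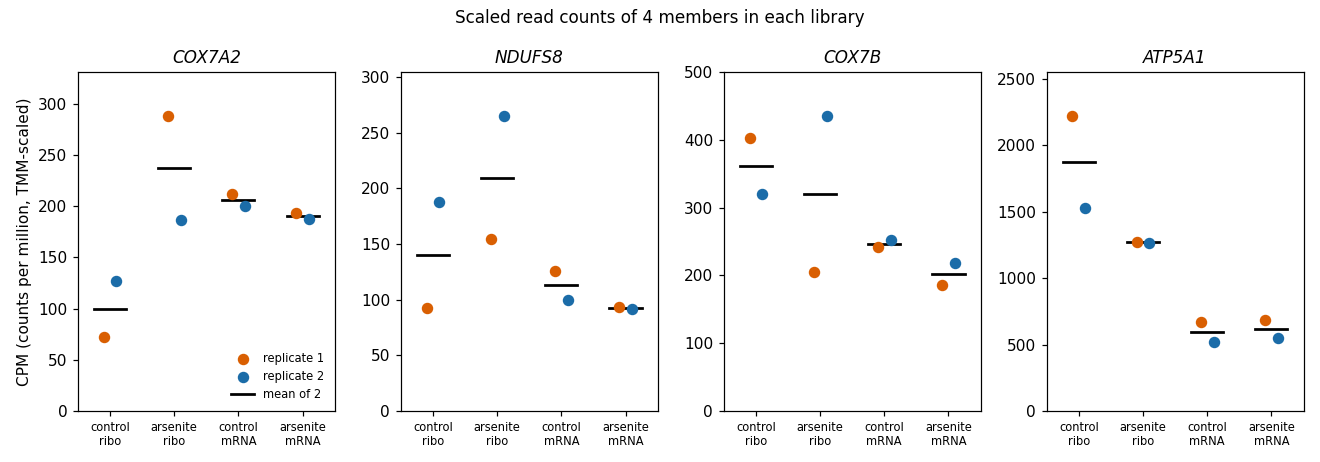
TMM-scaled CPM (vertical axes, separate for each gene and starting at 0) in the 8 libraries for COX7A2, NDUFS8, COX7B and ATP5A1, with a bar at the mean of 2 replicates (ribo, CDS reads of ribo-seq; mRNA, all mRNA-seq reads). COX7A2 ribo-seq lies higher in both arsenite libraries (288 and 186) than in both controls (72.1 and 127), while its mRNA-seq stays between 187 and 212.

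The last comparison was the change in TE, occupancy relative to mRNA level in 1 model over the 8 libraries. The member median was 0.03, with -0.14 and 0.10 in the replicates, against -0.01 for all genes. One member was called, NDUFS8, beside 2.15% of the 10273 genes tested. Its CDS ribo-seq reads were 139 and 1254 in control and 126 and 750 after arsenite, and its mRNA-seq reads were 559 and 2255, then 414 and 2318. Scaled, ribo-seq went from 92.8 to 154 CPM in replicate 1 and from 188 to 265 in replicate 2, while mRNA-seq went from 126 to 93 and from 99.9 to 92. The ribo-seq groups overlapped, since the arsenite value of replicate 1 lay below the control value of replicate 2. The fitted TE change of NDUFS8 was 0.83 ± 0.17 as a log2 value (edgeR, adjusted p = 0.0448), with 1.17 and 0.61 in the replicates. The call held in 3 of 10 alternative settings, and with CDS reads for mRNA-seq, with DESeq2 or without the block no member was called (9, 7 and 1 members at an unadjusted p below 0.05).

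**Figure D4:**
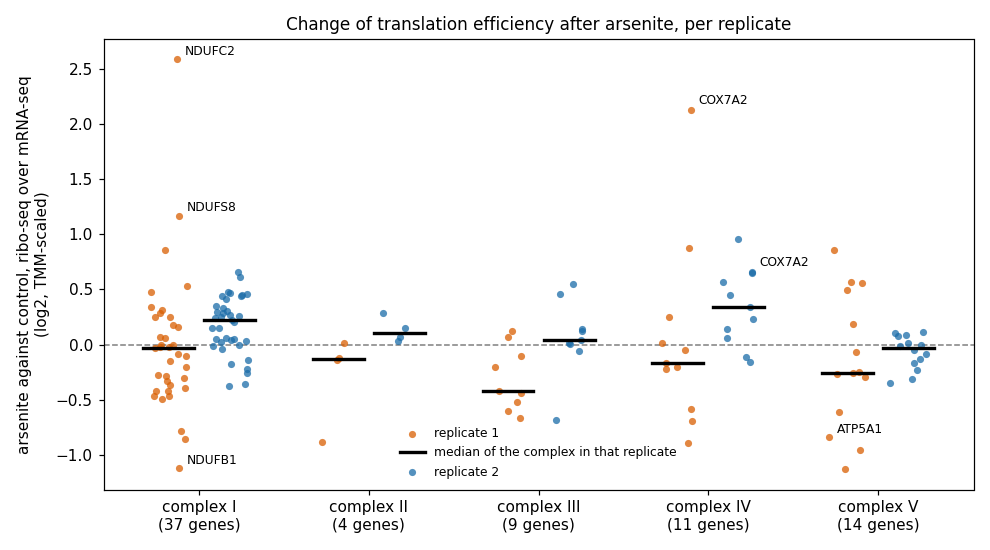
Log2 change in TE, arsenite against control (vertical axis), by complex (horizontal axis), with 1 point per gene and replicate and a bar at each median. Medians of replicate 1 lie below 0 in all 5 complexes, and those of replicate 2 lie above 0 in all but complex V; NDUFC2 and COX7A2 lie highest in replicate 1.

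COX7A2 had the highest fitted TE change, 1.22 ± 0.33, and was not called (adjusted p = 0.0792, edgeR), with 2.12 and 0.65 in the replicates. It was also the member with the lowest baseline TE, and both values use the same control libraries. NDUFC2 was at 1.00 ± 0.35 (adjusted p = 0.152, edgeR). At the other end, ATP5A1 was at -0.59 ± 0.18 (adjusted p = 0.113, edgeR). Its scaled ribo-seq was 2220 and 1525 in control and 1272 and 1265 after arsenite, without overlap, at mRNA-seq levels of 670 and 520, then 687 and 549. In the remaining complexes the extremes were SDHD (0.10) and SDHC (-0.20) in complex II, UQCR10 (0.39 ± 0.16) and UQCRH (-0.45 ± 0.24) in complex III and COX5A (-0.47 ± 0.20), which encodes a subunit on the matrix side, in complex IV. In complex V the highest was ATP5I (0.32 ± 0.31), and in complex I the lowest was NDUFB8 (-0.40 ± 0.14). None of these was called. CYC1 was at 0.05 and CYCS at 0.28 ± 0.17. ATP5SL, which encodes no ATP synthase subunit, was at 0.72 ± 0.20 (adjusted p = 0.0821, edgeR), with ATP5S at -0.20 and COX7A2L at -0.37.

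The complex medians of the TE change were 0.08 for complex I, -0.02 for complex II, -0.13 for complex III, 0.13 for complex IV and -0.15 for complex V. They covered a range smaller than the difference between replicates within complex IV, which had -0.16 and 0.34. In complex I 25 of 37 genes were above 0 (67.6%, against 48.6% of all genes tested), and 12 were so in both replicates (32.4%, against 29.5%). Cytosolic ribosomal protein genes had a median of -0.15 with 2 called higher and 3 lower of 79, mitochondrial ribosomal protein genes 0.12 with 1 each way of 75, and assembly factors 0.15 with 1 of 53 called higher (PET100, a complex IV assembly factor, at 0.85 ± 0.15, adjusted p = 0.0329, edgeR). The shares called in these 3 lists were 6.33%, 2.67% and 1.89%, beside 2.15% of all genes tested. In baseline TE the same 3 lists had medians of -0.58, 0.15 and -0.06. Of the 53 assembly factors, 1 was called higher in baseline TE, COX15 of heme A synthesis at 1.72 ± 0.30 (adjusted p = 0.00215, edgeR). This is 1.89%, where 8.39% of all genes tested were called higher. The 5 called lower were COA1, COX20, NDUFAF5, NDUFAF6 and TMEM126B, or 9.43%, where 13.6% of all genes tested were called lower.

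Reads in 5′ leaders were rare in these mRNAs. Leaders held 64 of 37024 member ribo-seq reads in replicate 1 of the control (0.173%, 95% Wilson interval 0.135% to 0.221%) and 515 of 151272 in replicate 2 (0.340%, 0.312% to 0.371%). Over all genes the shares were 0.392% and 0.795%. After arsenite they were 0.244% (0.179% to 0.332%) and 0.673% (0.613% to 0.739%) in members, and 0.490% and 1.52% over all genes. The share was thus higher after arsenite in both replicates, with overlapping intervals in replicate 1. It was lower in members than over all genes in all 4 libraries. These intervals cover counting error only. Leader and CDS lengths enter the share and were not compared between members and other genes. Of 1054 leader reads, 229 were on COX7C, 100 on COX6C and 72 on ATP5F1, and 28 members had none. Complex IV had the highest shares, 0.376% and 1.11% in control and 0.464% and 1.70% after arsenite. Unlike the members together, complex IV lay above the shares of all genes in replicate 2, and only slightly below them in replicate 1. COX7C alone went from 127 of 3420 reads (3.71%) to 98 of 1567 (6.25%) in replicate 2, but had 3 and 1 leader reads in replicate 1. Without COX7C the member shares were 0.168% and 0.262% in control and 0.241% and 0.534% after arsenite. In NDUFV1, the subunit that oxidizes NADH, leader reads went from 28 of 2089 (1.34%) to 39 of 955 (4.08%) in replicate 2, with none in replicate 1. Genes with leader reads in both replicates differed. COX6C went from 3.36% to 3.45% in replicate 1 and from 4.27% to 4.12% in replicate 2. NDUFC1 went from 4.28% to 2.44% and from 4.78% to 5.90%, and ATP5F1 from 0.375% to 1.175% and from 0.942% to 1.28%.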

How the data were processed

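HEK293T cells were given 40 µM sodium arsenite or vehicle for 30 min, and 4 ribo-seq and 4 mRNA-seq libraries were used, grouped by their labels. The authors removed adapters with Cutadapt, set aside spike-in and rRNA reads, aligned the rest to RefSeq transcripts with Bowtie 1.0.0 and discarded reads of more than 1 gene. They deposited raw read counts per transcript, not normalized, with the same counts per region (leader, CDS, 3′ UTR; ribo-seq placed by inferred A-site). Depth is given in the report, and replicate 1 was the shallower one in every group.

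One transcript per gene was taken (most CDS ribo-seq reads in control), with a mean of at least 10 counts. Tests used the quasi-likelihood method of edgeR 4.0.16 in R 4.3.3 after TMM scaling, and calls had a Benjamini-Hochberg adjusted p below 0.05. mRNA level used whole-transcript counts (4 libraries), occupancy CDS counts (4), TE change both (8) and baseline TE CDS counts of both assays in control (4). The replicate was a block in each model, within assay for the TE change. The pairing comes from the methods, where replicates differed in adapter and sequencing, and libraries of 1 replicate deviated together (correlation 0.866 over 10880 genes in mRNA-seq and 0.793 over 7381 in ribo-seq). The methods describe the 2 replicates as independent and biological, while the labels do not say whether they are separate cultures. The p-values rest on the spread left between these samples after the replicate block, which edgeR shares across genes. Each ± is the absolute log2 value divided by the square root of the test's F statistic, not a spread of the 2 replicates. Log2 changes within replicates used a prior count of 0.5. Simulated counts held log2 changes of 2. Of the changed genes, 195 of 195 were recovered for mRNA level and 191 of 196 for occupancy. For TE change 191 of 198 were recovered, and for baseline TE 183 of 187. False calls numbered 4, 22, 6 and 12 in the same order. The mRNA changes called in members lay between -0.26 and -0.16, and recovery of changes that small was not simulated.

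Members, lists and rules were chosen with earlier results of these data known. Named genes were every called member, the extremes of baseline TE and TE change per complex, SDHA to SDHD, CYC1, CYCS, paralog sets, symbols that are no subunits, and members with too few reads. Promoters came from RefSeq tables by transcript accession. One member is counted in the summaries but not reported by name here. Levels per CDS length between genes were not compared, since lengths were not used here. Alternatives were DESeq2 1.42.0, upper-quartile and relative log expression scaling, no count minimum or one of 50, no block or one shared by both assays, other read regions, another transcript, all 8 libraries for baseline TE, NDUFA4 in complex I, and leaving out each replicate. Other software was Python 3.11.15, numpy 2.4.6, scipy 1.17.1, pandas 2.3.3 and matplotlib 3.10.9.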

Additional observations from a re-analysis of the deposited data

How the results depend on the processing

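The main counts over all genes were 725 for the mRNA level, 289 for occupancy, 221 for the TE change and 2336 for baseline TE, and the member counts were 20, 1, 1 and 10. Without the replicate block they were 0, 0, 0 and 377 over all genes, and 0, 0, 0 and 0 members, so all member calls depend on pairing libraries by replicate. With 1 replicate block shared by both assays, the TE change had 0 calls and 0 members. DESeq2 called 86 genes in mRNA level (0 members), 54 in occupancy and 114 in TE change (0 members). With CDS reads for mRNA-seq, the mRNA level had 240 calls (2 members) and the TE change 80 (0 members).

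In occupancy, upper-quartile scaling gave 477 calls (2 members), relative log expression scaling 556 (4), no count minimum 540 (4) and a minimum of 50 counts 578 (5), and ribo-seq reads over the whole transcript 2 members. In TE change, upper-quartile scaling gave 142 calls (0 members), no minimum 458 (2), a minimum of 50 counts 136 (0), and whole-transcript ribo-seq reads 0 members. In baseline TE, no minimum gave 20 members, a minimum of 50 counts 1542 calls (5 members), and whole-transcript mRNA-seq reads 3629 calls (34 members).

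The yardstick for medians was the SD of the 2 replicate medians, which differed between comparisons. Over members and in complexes III and IV it was 0.034, 0.033 and 0.019 in baseline TE but 0.172, 0.325 and 0.359 in TE change. A small shift could therefore pass it in baseline TE only, so passing does not rank the comparisons by robustness. Medians moved by more than this SD mainly in baseline TE. Over members and in complexes III and IV they were 0.24, 0.66 and 0.33 with upper-quartile scaling, 0.35, 0.78 and 0.45 with relative log expression scaling and with DESeq2, 0.37, 0.79 and 0.46 without a count minimum, and 0.20, 0.63 and 0.30 with a minimum of 50 counts, where complex V was at 0.20. With whole-transcript mRNA-seq reads they were 0.65, 1.22 and 0.58, with complex I at 0.74 and complex V at 0.91. Complex IV was at 0.38 from all 8 libraries and at 0.36 with NDUFA4 in complex I. In mRNA level, complex III was at -0.11 with CDS reads, and complex IV at -0.14 with NDUFA4 in complex I. The causes were not tested.

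Leaving out 1 replicate at a time gave baseline TE medians of 0.33 to 0.38 over members and 0.26 to 0.41 in complex I. They were 0.49 to 0.53 in complex III and 0.30 to 0.33 in complex IV. The main medians over members (0.31), in complex III (0.74) and in complex IV (0.40) lay outside these ranges. In mRNA level, leaving out 1 replicate gave -0.14 to -0.10 in complex III and -0.16 to -0.13 in complex IV. The main values there, -0.16 and -0.17, also lay outside. In occupancy it gave -0.33 to -0.14 in complex V. No called member changed sign in any alternative. Of the 10 alternatives for the TE change, NDUFS8 was called in 3, and COX7A2 was called in 7 of 8 for occupancy. Some values rest on few reads in replicate 1, such as those of UQCRH and NDUFC2. Footprint density per length was not run.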
